A study of Mus musculus with 95 samples.

Results

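The genes described here encode the respiratory chain and the ATP synthase of mitochondria, measured by RNA-seq in mouse pancreatic islets, which hold the endocrine cells that release insulin, glucagon and other hormones. They were chosen by gene symbol: Nduf genes with the letters a, b, c, s or v (complex I), Sdha to Sdhd (complex II), Uqcr genes and mt-Cytb (complex III), Cox4 to Cox8 genes and mt-Co1 to mt-Co3 (complex IV), Atp5 genes and mt-Atp6 and mt-Atp8 (ATP synthase), and the mt-Nd genes (complex I). Of 20638 genes in the table, 102 matched by name, and 100 of these reached 1 CPM (the count scaled to a fixed library total) in at least 10 libraries. Of the 100, 87 lie in the nuclear genome and 13 in the mitochondrial genome. In values by complex, Ndufa4 and Ndufa4l2 were counted with complex IV. The Ndufaf genes, Atp5s, Atp5sl and Cox7a2l were not counted as structural subunits. The filter left out Cox7a1, which reached 1 CPM in 4 libraries, and Cox6b2, which did so in 1 library. Cox4i2, the kept member nearest to the limit, did so in 53.

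All mice ate a diet high in fat and sugar, labelled as 45% fat, and belonged to the strains from which the Diversity Outbred population was bred. The 95 libraries carry numbers between 1 and 100, and their labels give neither strain nor sex. All libraries were therefore taken as 1 set, no groups were compared, and nothing says which libraries came from the same strain. Values are medians and ranges over libraries in CPM scaled with edgeR's TMM factors, which reduce the pull of a few very abundant genes. Spread is the width, on the log2 CPM scale, between percentiles 10 and 90 of the libraries.

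The chain passes electrons from NADH through complex I, or from succinate through complex II, to ubiquinone, then through complex III and cytochrome c to complex IV, which reduces oxygen. Complexes I, III and IV pump protons, and the ATP synthase uses the returning protons to make ATP. In beta cells the resulting ATP closes potassium channels and so couples glucose metabolism to insulin secretion. Complexes I, III, IV and the ATP synthase combine subunits made from nuclear and mitochondrial genes, whereas complex II is wholly nuclear. Mitochondrial genes are transcribed as long precursors inside the organelle, and pieces of mitochondrial DNA have also been copied into the nuclear genome.

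The sequences of mt-Co2 and its nuclear copies are shown because, in the reference, mt-Co2 and its copy Gm28661 cannot be told apart by sequence over most of their length. mt-Co2 encodes the subunit of complex IV that receives electrons from cytochrome c and lies at bases 7013 to 7696 of the mitochondrial genome (GRCm38, plus strand). Gm28661, annotated in GENCODE M21 as an unprocessed pseudogene, lies at chr1:24614885-24615565 on the minus strand and is identical to mt-Co2 over 681 of 681 bases. The difference lies after the copy's last base, where mt-Co2 has its stop codon, in capitals in the ends of both transcripts:
mt-Co2: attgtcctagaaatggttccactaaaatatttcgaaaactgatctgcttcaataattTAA
Gm28661: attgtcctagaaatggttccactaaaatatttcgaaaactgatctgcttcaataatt
In the reference, no base inside the shared 681 bases separates these genes. Whether the strains sequenced here carry the same bases was not tested. Gm13341, another unprocessed pseudogene at chr2:22587291-22587962 on the minus strand, has 656 of 672 aligned bases identical, with 16 mismatches and 12 gap bases. The stretch with the most mismatches, bases 445 to 544 of mt-Co2, holds 7 of them, in capitals:
mt-Co2: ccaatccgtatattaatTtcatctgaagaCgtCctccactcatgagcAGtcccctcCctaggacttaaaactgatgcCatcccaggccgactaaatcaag
Gm13341: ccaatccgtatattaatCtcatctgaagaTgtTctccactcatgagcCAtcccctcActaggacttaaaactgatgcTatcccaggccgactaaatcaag

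Gm28661 stands in a row of 7 annotated copies at chr1:24611535-24616197, all on the minus strand. Gm10222 equals mt-Nd4l over 294 of 294 bases, Gm10925 equals mt-Atp6 over 678 of 678, and Gm28437 equals mt-Co3 over 783 of 783. Gm28439 equals mt-Nd4 over its 876 bases, while mt-Nd4 itself has 1378. Gm28438 differs from mt-Nd3 by T3C and Gm29216 from mt-Co1 by A1066T within 483 aligned bases, with positions counted from the 5′ end of the mitochondrial transcript. Copies elsewhere in the nuclear genome were less alike: Gm13340 (mt-Co1), Gm13339 (mt-Nd2) and Gm4076 (mt-Nd5) had 37, 17 and 45 mismatches. By contrast, mt-Nd1 shared 0 of its 31-base words with other annotated genes.

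The copies of nuclear subunit genes that bear on the results are shown next. Cox5b, an accessory subunit of complex IV on chromosome 1, has a copy in Gm11273 at chr13:21501029-21501418 (minus strand), which differs by C217T, A316G and G346A, counted from the start of the Cox5b transcript. Bases 207 to 346 of Cox5b and their match in Gm11273 hold all 3, in capitals:
Cox5b: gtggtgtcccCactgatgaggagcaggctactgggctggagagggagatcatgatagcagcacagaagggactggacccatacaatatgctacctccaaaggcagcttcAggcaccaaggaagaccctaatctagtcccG
Gm11273: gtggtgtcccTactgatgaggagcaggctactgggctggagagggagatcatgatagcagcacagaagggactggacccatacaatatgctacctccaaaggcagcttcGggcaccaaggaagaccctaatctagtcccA
Atp5g2, which encodes the membrane-embedded c subunit of the ATP synthase and lies on chromosome 15, equals Gm10175 (chr7:23946646-23947290, minus strand) over 645 of 645 bases and Gm10231 over 441 of 441. Ndufb4, an accessory subunit of complex I on chromosome 16, equals Gm3244 (chr15:73809507-73809896, minus strand) over 390 of 390. Of these, Gm11273 is annotated as protein-coding and the others as processed pseudogenes, the intronless copies left by reverse transcription of an mRNA. The opening 100 bases from the start codon of Atp5g2 and 90 from that of Ndufb4 read the same in gene and copy:
Atp5g2: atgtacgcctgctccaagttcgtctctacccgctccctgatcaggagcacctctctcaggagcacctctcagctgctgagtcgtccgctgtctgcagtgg
Ndufb4: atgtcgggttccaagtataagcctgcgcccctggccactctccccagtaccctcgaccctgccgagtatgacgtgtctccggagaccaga

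The libraries held between 16411809 and 34357253 estimated counts, with TMM factors of 0.460 to 1.29. Genes of acinar cells, the enzyme-secreting cells around the islets, took 0.323% to 51.7% of counts (median 8.31%), and islet hormone genes took 6.82% to 26.6%. Lists of islet identity genes (0.243% to 0.874%), immune genes (0.00397% to 0.441%), and duct, endothelial and stromal genes (0.0256% to 0.149%) took less. Of 13 muscle, heart and brown fat genes, 4 were in the table and 2 were kept. In bulk tissue, fewer cells of a type and less RNA per cell cannot be told apart.

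The 13 mitochondrially encoded genes stood far above the nuclear ones in level. Per kilobase of transcript, their median CPM had a median of 1240 over genes, ranging from 215 (mt-Nd3) to 3456 (mt-Co1). The 87 nuclear members had a median of 39.4 CPM per kilobase, from 1.54 (Cox4i2) to 211 (Atp5b). Every mitochondrial gene thus had a higher level per kilobase than the highest nuclear member, although mt-Nd3 and Atp5b were close.

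The nuclear members took 0.458% of all counts at the median, from 0.236% in library 54 to 0.561% in library 97. The mitochondrial genes took 0.914% (library 95) to 2.64% (library 46). The ratio of mitochondrial to nuclear counts was 4.04 at the median, lowest in library 45 (2.59) and highest in library 36 (6.02). As shares of counts the sums had a Spearman rho of 0.35 over the 95 libraries, and as TMM-scaled CPM −0.08. The nuclear share had a rho of −0.83 with the acinar share of counts and the mitochondrial share −0.55. Their ratio, in which the library total cancels, had a rho of 0.06 with the acinar share and −0.51 with the share of duct, endothelial and stromal genes. These relations describe shares of the same totals, and what part the cell mix had in them was not tested.

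**Figure D1:**
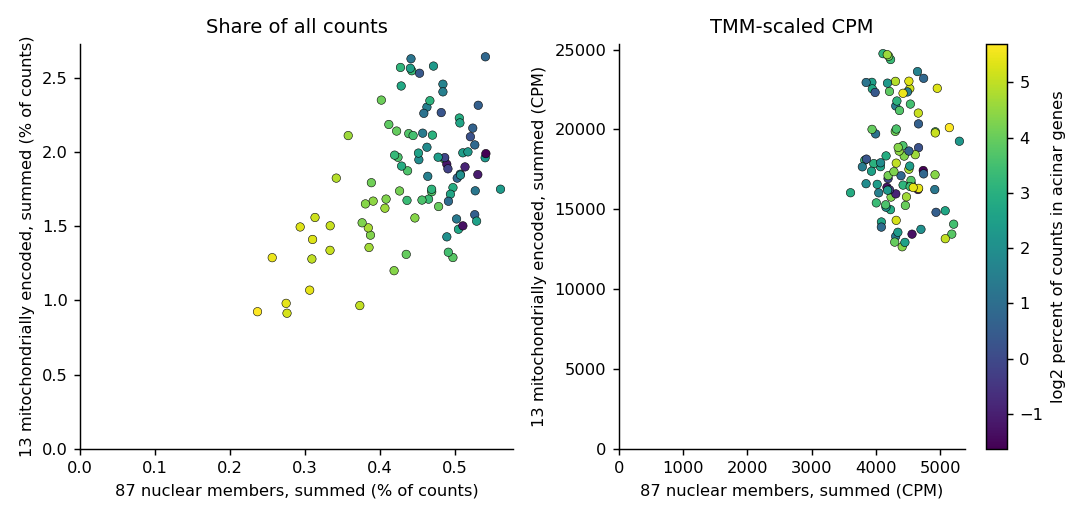
Summed level of the 87 nuclear members (x axis) against that of the 13 mitochondrially encoded members (y axis) in 95 libraries (points), as percent of all counts (left) and as TMM-scaled CPM (right); colour gives the log2 percent of counts in acinar genes. On the left, libraries with the highest acinar shares sit low on both axes; on the right, nuclear sums span 3606 to 5301 CPM and mitochondrial sums 12649 to 24742 CPM.

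On the TMM scale the nuclear sum was the steadier: it ranged from 3606 CPM (library 78) to 5301 CPM (library 15), a 1.47-fold span. The mitochondrial sum ranged from 12649 CPM (library 91) to 24742 CPM (library 36), a 1.96-fold span. For single genes, the median spread was 0.51 log2 units for nuclear members and 0.84 for mitochondrial ones, against 0.92 over all 15839 kept genes. With the deposited variance-stabilised values these medians were 0.42, 0.81 and 0.56, so there the mitochondrial genes lay above all kept genes. The 3 sets also differ in level, with median CPM of 34.0, 1134 and 14.4, whose part in the spread was not tested. The biological coefficient of variation is the relative spread left after counting noise, and its medians were 14.02%, 22.5% and 26.1% for the same sets. Above 50% stood 3 of 87 nuclear members (Atp5g2, Cox6a2, Ndufb4) and 2 of 13 mitochondrial members (mt-Co2, mt-Nd4l), against 24.5% of all kept genes. Among libraries numbered 50 or lower, 1 nuclear (Atp5g2) and 1 mitochondrial member (mt-Co2) did, against 17.9% of all kept genes there. The share of nuclear members above 50% was thus below that of all genes, while 2 of 13 is too few to set beside it.

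**Figure D2:**
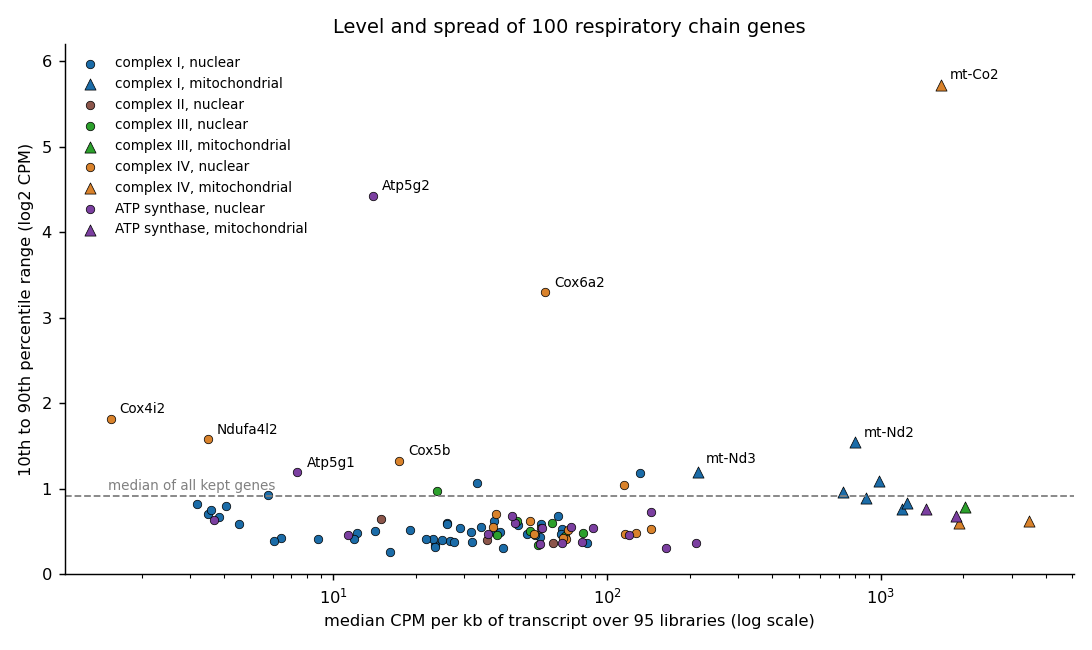
Median level per kilobase of transcript (x axis, CPM, log scale) against the 10th to 90th percentile range of log2 CPM (y axis) for 100 genes; circles are nuclear and triangles mitochondrially encoded genes, colours mark the complexes, and the dashed line is the median range of all kept genes (0.92). Most nuclear members lie below the line, and mt-Co2, Atp5g2 and Cox6a2 lie above 3 log2 units.

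In complex I, the mt-Nd genes encode the proton-pumping membrane arm. mt-Nd1 ranged from 563.9 to 1804 CPM with a median of 1141, mt-Nd4 from 1063 to 2596 with a median of 1709, and mt-Nd5 from 956 to 2438 with a median of 1602. These 3 genes varied by similar amounts, with spreads of 0.77, 0.84 and 0.89. mt-Nd2 varied more, from 319 CPM in library 89 to 2120.7 in library 37 (median 835, spread 1.54). All 6 libraries numbered 34 to 39 held mt-Nd2 at 1673 to 2120.7 CPM, and the other 89, at 319 to 1938, overlapped with them. mt-Nd6, encoded on the opposite strand to the rest, had a median of 375 CPM (217 to 599), and mt-Nd3, the lowest of all per kilobase, 74.8 CPM (35.1 to 153). mt-Nd6 shares 14 bases with mt-Nd5, and mt-Nd4l shares 7 with mt-Nd4.

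mt-Cytb, the cytochrome b of complex III, had a median of 2317 CPM (1480 to 3883). mt-Co1, the catalytic subunit of complex IV, had a median of 5340 CPM, from 3698 in library 9 to 7471 in library 36. mt-Co3 had a median of 1507 CPM (1004 to 2312). mt-Co1 and mt-Co3 had the narrowest spreads of the mitochondrial members, 0.62 and 0.60. For the ATP synthase, mt-Atp6 had a median of 995.5 CPM (606 to 1734) and mt-Atp8, which shares 43 of its 204 bases with mt-Atp6, 383 CPM (240 to 572). Library 89 was the lowest for 6 of the 13 genes and library 100 for 4.

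The counts of mt-Co2 fell into 2 separate ranges. In 23 libraries, numbered 1 to 8, 34 to 39 and 66 to 75, it lay at 22.6 to 35.8 CPM, and in the other 72 at 807 to 1814.5 CPM. Gm28661 was high in the same 23 libraries, at 1583 to 2290 CPM, and lay at 593 to 1170 CPM in the rest. Gm13341 lay at 175 to 294 CPM in the 14 libraries numbered 1 to 8 and 34 to 39, and below 1 CPM in the other 81. Summed, mt-Co2 and its copies ranged from 1527 (library 45) to 2926 CPM (library 57), and the spread of 5.72 for mt-Co2 alone became 0.60, near that of mt-Co1. The mean rho of mt-Co2 with the other 12 mitochondrial genes was 0.20 alone and 0.71 for the sum. Low and high ranges thus did not overlap for the gene as tabulated, and the sum showed no such division. Which animals the 23 libraries came from is not in the labels.

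mt-Nd4l showed the same arrangement in fewer libraries. It lay at 16.4 to 21.3 CPM in the 9 libraries numbered 66 to 75 and at 189 to 496 in the other 86, while Gm10222 lay at 267 to 357 CPM in those 9 and at 5.19 to 76.4 elsewhere. Their sum ranged from 197 to 530 CPM. Gm13339, the copy of mt-Nd2, lay at 142 to 259 CPM in the same 9 libraries and at no more than 14.4 in the rest. The copies Gm10925 (median 887 CPM) and Gm28437 (889 CPM) stood beside mt-Atp6 and mt-Co3 in every library, at no less than 592 and 581 CPM. All counts of mitochondrial genes with their annotated copies made 2.17% of the total at the median, from 1.07% to 3.07%.

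**Figure D3:**
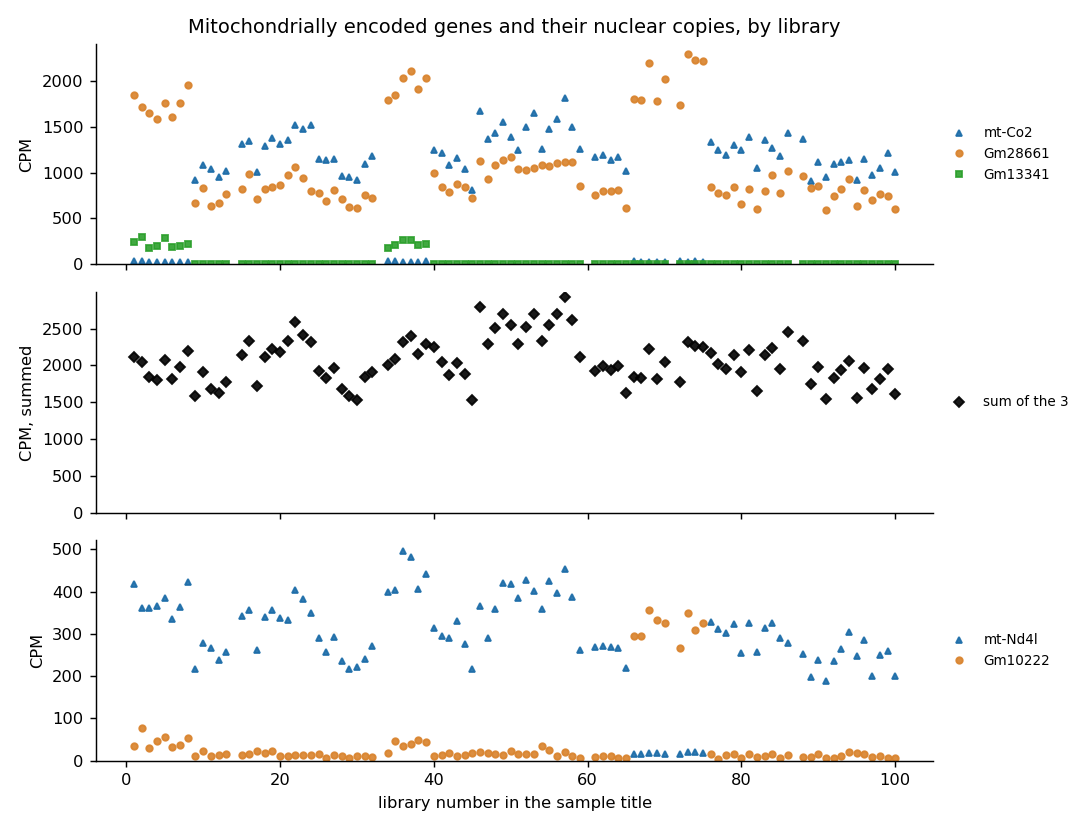
TMM-scaled CPM (y axes) by library number (x axis), 1 point per library: mt-Co2 with its copies Gm28661 and Gm13341 (top), the sum of the 3 (middle), and mt-Nd4l with Gm10222 (bottom). mt-Co2 lies below 36 CPM in libraries 1 to 8, 34 to 39 and 66 to 75, where Gm28661 is above 1583, and the sum stays between 1527 and 2926 CPM throughout.

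Separation into ranges was counted with 1 rule over all genes: an empty stretch of over 20% of a gene's log2 CPM range with at least 6 libraries on each side. Of all kept genes 2.07% met it (328 of 15839), and of the members 5 of 87 nuclear and 2 of 13 mitochondrial did. The nuclear genes were Atp5g2, Ndufb4, Cox5b, Cox6a2 and Ndufv1. Copies listed above belong to 3 of these 5, and their values mirrored those of the gene.

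Atp5g2 lay at 2.80 to 10.2 CPM in 48 libraries and at 56.6 to 102 CPM in 47, those numbered 1 to 8, 25 to 39, 59 to 75 and 91 to 100. Gm10175 lay at 0.0814 to 10.7 CPM in these 47 and at 58.9 to 95.7 in the 48. The sum with both copies ranged from 63.0 to 104 CPM, and the spread of 4.43 became 0.48. Cox5b lay at 25.1 to 34.1 CPM in the same 23 libraries in which mt-Co2 was low, and at 10.7 to 18.1 in the other 72. Gm11273 lay at 8.15 to 13.9 CPM in the 23 and at 24.8 to 39.2 elsewhere, and their summed spread was 0.32 against 1.33 for Cox5b. Ndufb4 lay at 16.9 to 23.0 CPM in the 9 libraries numbered 66 to 75, where Gm3244 was at most 0.238 CPM, and at 2.72 to 5.63 elsewhere, where Gm3244 lay at 12.4 to 22.3. Their summed spread was 0.42.

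With copies added, these genes also resembled the other nuclear subunits more. The mean rho with the other 76 structural subunits was 0.05 for Atp5g2 alone and 0.48 with copies, 0.11 and 0.39 for Cox5b, and 0.21 and 0.45 for Ndufb4. For Cox7c, a small complex IV subunit whose copy Gm12338 equals it over 192 bases, the values were 0.38 and 0.48. Counting copies with their nuclear genes left 1 of the 87 above a coefficient of 50%, Cox6a2. Over all kept genes, counted without copies, the share was 24.5%.

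**Figure D4:**
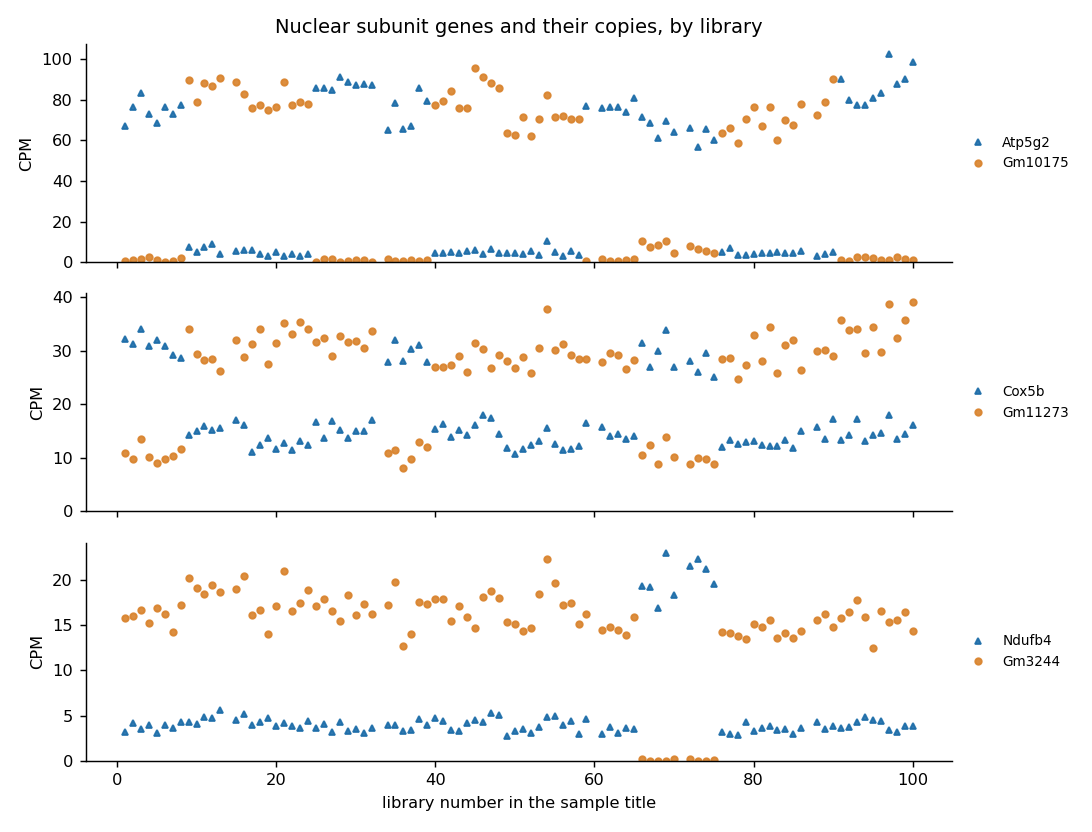
TMM-scaled CPM (y axes) by library number (x axis), 1 point per library, for Atp5g2 and Gm10175 (top), Cox5b and Gm11273 (middle) and Ndufb4 and Gm3244 (bottom). In each panel gene and copy change places at the same library numbers: Atp5g2 is above 56 CPM in 47 libraries, Cox5b above 25 CPM in 23 and Ndufb4 above 16 CPM in 9.

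Cox6a2, a complex IV subunit best known from heart and skeletal muscle, has no copy that shares 10% of its words and is in the table. It lay at 1.45 to 3.87 CPM in all 10 libraries numbered 91 to 100 and at 11.4 to 101 CPM in the other 85, with a median of 40.2 overall. The 3 libraries numbered 88 to 90 were the next lowest, at 11.4 to 17.3 CPM, and the 5 numbered 34 to 38 held 82.0 to 101 CPM, against at most 84.7 in the others. Its widely expressed counterpart Cox6a1 ranged only from 56.5 to 103 CPM. Without the libraries numbered above 90, the coefficient of Cox6a2 was no longer above 50%. The muscle, heart and brown fat list took at most 0.000887% of counts in any library and 9.00e-05% to 0.000248% in libraries 91 to 100, and its share had a rho of −0.03 with Cox6a2.

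Ndufv1 encodes the core subunit of complex I that carries the flavin to which NADH binds. Ndufv1 lay at 28.7 to 31.4 CPM in 6 libraries (29, 30, 32, 59, 61 and 62) and at 43.7 to 71.7 in the other 89. These 6 are among the 14 libraries numbered 25 to 32 and 59 to 65, in which Atp5g1, another c subunit gene of the ATP synthase, lay at 51.8 to 63.8 CPM. Elsewhere Atp5g1 ranged from 20.1 to 58.0 CPM, so these ranges overlap.

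**Figure D5:**
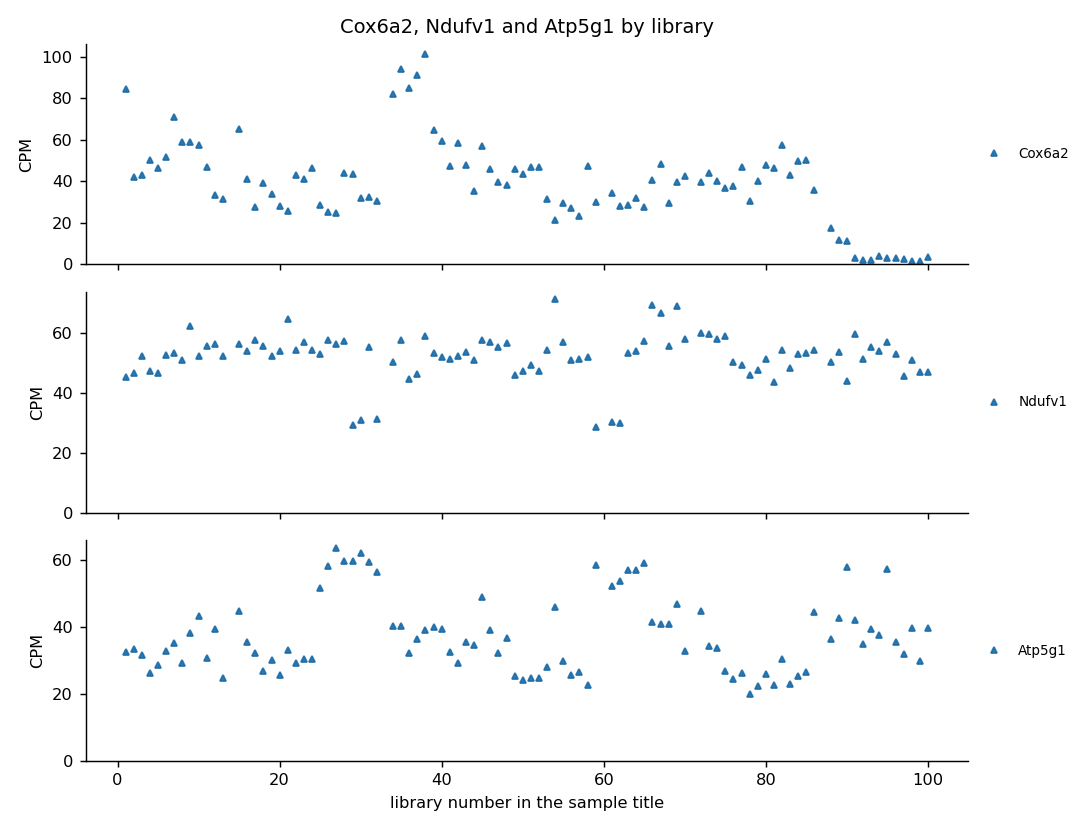
TMM-scaled CPM (y axes) by library number (x axis) for Cox6a2, Ndufv1 and Atp5g1, 1 point per library. Cox6a2 is below 4 CPM in libraries 91 to 100, Ndufv1 is near 30 CPM in 6 libraries, and Atp5g1 exceeds 51 CPM in all 14 libraries numbered 25 to 32 and 59 to 65.

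Most other nuclear complex I subunits varied little. Ndufa10, an accessory subunit, had the narrowest spread of all nuclear members, 0.25, with 29.2 to 40.6 CPM and a median of 32.4. Ndufs1, the largest iron-sulphur subunit, ranged from 52.5 to 75.1 CPM (median 62.5). Over the 36 structural subunits the median spread was 0.49 (core 0.41, accessory 0.49). The 7 Ndufaf genes, which help to assemble the complex and are not part of it, had a median of 4.53 CPM per kilobase against 30.5 for the structural subunits, and a median spread of 0.66.

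In complex II, Sdha, the flavoprotein that oxidises succinate, had a median of 184 CPM (149 to 221) and the narrowest spread of its complex (0.37). Sdhc, a membrane anchor, had the widest (0.64, median 47.2 CPM). Sdha lay at 149 to 173 CPM in libraries 91 to 100 and at 155 to 221 elsewhere. In complex III, the core protein gene Uqcrc2 ranged from 86.4 to 127 CPM around a median of 106, with the narrowest spread, 0.35. Uqcrq, a small subunit, had the widest, 0.97, and lay at 51.1 to 59.6 CPM in the 6 libraries numbered 9 to 15 against 22.6 to 69.7 in the others.

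In complex IV, Cox7a2l, which is known for joining complexes III and IV, had a median of 130 CPM (77.4 to 223). Its copy Gm6969 was at most 9.36 CPM in the 43 libraries numbered 9 to 24, 40 to 58 and 66 to 75. In the other 52 the copy was at least 17.4. Cox7a2l itself lay at 110 to 223 CPM in those 43 and at 77.4 to 167 in the 52, so its ranges overlapped. With the copy added, Cox7a2l still had a spread of 0.83 against 1.04 alone. Cox4i1, the regulatory subunit, had a median of 88.7 CPM (70.5 to 133), and Cox6b1 the narrowest spread (0.41). Cox5a, the partner of Cox5b, lay at 31.4 to 58.2 CPM in libraries 91 to 100 and at 18.7 to 40.0 in the other 85. Its highest value was in library 97, which also had the highest share of immune genes (0.441%; at most 0.295% elsewhere), and over all libraries Cox5a and that share had a rho of −0.03. In the GENCODE models 41.7% of the Cox5a transcript is overlapped by the opposite-strand gene Gm26631 (median 0.262 CPM), and the use of strand in counting is not given in the sources used here.

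Several subunits exist as alternative isoforms. Per kilobase, Cox4i1 was 75.5-fold above Cox4i2, the isoform known from lung and low oxygen, and Ndufa4 was 20.6-fold above Ndufa4l2, a gene known to respond to low oxygen. Cox4i2 (0.321 to 3.28 CPM) and Ndufa4l2 (1.12 to 11.1 CPM) had wide spreads, 1.82 and 1.58. Their levels had rhos of 0.67 and 0.64 with the share of duct, endothelial and stromal genes, whose part in the spread was not tested. Cox6a2 stood 2.15-fold below Cox6a1 per kilobase at the median. Per kilobase, Cox6b1 (70.95 CPM) stood beside Cox6b2 at 0.306 CPM, and Cox7a2 (53.9 CPM) beside Cox7a1 at 0.591 CPM. Cox8a had a median of 79.8 CPM, and its isoforms were not analysed here.

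In the ATP synthase, Atp5b and Atp5a1, which form the catalytic head, had medians of 404.87 and 404.69 CPM (211 and 164 per kilobase). Atp5b ranged from 329 to 517 CPM and Atp5a1 from 342 to 511, with spreads of 0.36 and 0.31. The 3 c subunit genes encode the same mature protein. Atp5g3 was the highest per kilobase (120 CPM) and the steadiest (69.7 to 113 CPM, spread 0.46). The sum of Atp5g1 to Atp5g3 ranged from 94.9 to 244 CPM with a spread of 1.03. With Gm10175 and Gm10231 added it ranged from 154 to 262 CPM with a spread of 0.46.

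Across libraries the nuclear subunits varied together on average, and so did the mitochondrial genes, while the mean rho between the genomes was near 0. The mean pairwise rho was 0.29 over 3741 pairs of nuclear members and 0.35 among the 77 structural subunits, against 0.000465 over all pairs of kept genes. Of the 3741 nuclear pairs 18.0% were negative, and single rhos ran from −0.61 to 0.87. Between nuclear and mitochondrial members the mean was −0.02 over 1131 pairs, 56.6% of them negative. Single rhos there ran from −0.71 to 0.70, so a mean near 0 is not an absence of relations. With plain CPM, where the all-gene mean was 0.277, these means were 0.56 within the nuclear members and 0.26 between genomes. Relative to all genes the picture on that scale was the same for the nuclear members (higher) and for the pairs between genomes (close to the mean). Among the 78 pairs of mitochondrial genes the mean was 0.69 and the median 0.80, and no rho was below 0. These are descriptions over libraries that may share strains, so they carry no p-value.

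By complex, the mean rho among structural subunits was 0.49 in the ATP synthase, 0.47 in complex III, 0.38 in complex IV, 0.33 in complex I and 0.16 among the 4 genes of complex II. Between complexes I, III, IV and the ATP synthase it ran from 0.33 (I with IV) to 0.49 (III with the ATP synthase), and between complex II and each of the others from 0.13 (IV) to 0.24 (III). The Ndufaf assembly factors had a mean of −0.00464 among themselves. Of 87 nuclear members, 81 had a positive mean rho with the other nuclear ones. The other 6 were Ndufab1 (−0.20), the mitochondrial acyl carrier protein that also serves fatty acid synthesis, Ndufaf7 (−0.20), Ndufaf2 (−0.13), Atp5s (−0.06), Ndufaf1 (−0.05) and Cox6a2 (−0.01). With plain CPM all 87 were positive, and the values for Ndufab1, Ndufaf7 and Cox6a2 were 0.21, 0.46 and 0.13.

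With the mitochondrial genes, 37 nuclear members had a positive and 50 a negative mean rho, whereas with plain CPM 81 were positive and 6 negative (Atp5d, Atp5g1, Atp5g2, Uqcrq, Cox4i2 and Ndufa4l2). The highest was Sdha (0.53, and 0.63 with plain CPM), and Sdhc had 0.40, although complex II has no mitochondrially encoded subunit. The lowest were Cox4i2 (−0.42), Atp5e, the epsilon subunit of the ATP synthase (−0.38), and Atp5g1 (−0.36). With plain CPM they were −0.07, 0.06 and −0.02.

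In addition, 12 pairs of genes were tested by two-sided permutation (100000 resamples, Benjamini-Hochberg over the 12). Ndufv1 splits into separate ranges, so its relation with mt-Nd4 was taken within each: in the 89 libraries of the upper range rho was −0.27 (permutation p = 0.012 unadjusted; r = −0.24, p = 0.024), and in the 6 of the lower range −0.03 (exact permutation p = 1.0; r = −0.06, p = 0.903). Of the other 11 pairs, 8 passed at an adjusted p of 0.05. The p-values are too small to the extent that libraries of the same strain resemble each other.

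Within a genome most of the relations tested were close. Cox4i1 with Atp5b had a rho of 0.76 (r = 0.78), Uqcrc1 with Cox4i1 0.70 (r = 0.65), mt-Nd1 with mt-Cytb 0.80 (r = 0.75) and mt-Co1 with mt-Nd4 0.85 (r = 0.86). Each had an adjusted permutation p of 3e-05 for both measures, from the smallest p that the permutations can give (1e-05). Without the 2 libraries farthest from the median of the x gene, r was 0.76, 0.67, 0.79 and 0.85. In libraries numbered 50 or lower the rho of Uqcrc1 with Cox4i1 was 0.35. Ndufs1 with Sdha was weaker, with a rho of 0.35 (adjusted permutation p = 0.0009; r = 0.37, adjusted p = 0.000528; r = 0.38 without 2 libraries) and it did not pass in libraries numbered 50 or lower (0.24), above 50 (0.26) or without those above 90 (0.18), while with plain CPM it was 0.74.

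Between genomes, relations of subunits of the same complex were weak and differed in sign. Ndufs1 with mt-Nd1 had a rho of 0.26 (adjusted permutation p = 0.0175; r = 0.27, adjusted p = 0.012; r = 0.26 without 2 libraries), which was −0.05 in libraries numbered 50 or lower and 0.16, not passing, without those above 90, and 0.57 with plain CPM. Cox4i1 with mt-Co1 had a rho of −0.23 (adjusted permutation p = 0.0335; r = −0.26, adjusted p = 0.0186; r = −0.27 without 2 libraries), which was 0.21 with plain CPM and did not pass in libraries numbered above 50 (−0.21) or without those above 90 (−0.18). Uqcrc1 with mt-Cytb (rho 0.05, adjusted permutation p = 0.657; r = 0.15, adjusted p = 0.188) and Atp5b with mt-Atp6 (rho 0.06, adjusted permutation p = 0.626; r = 0.07, adjusted p = 0.557) did not pass. In libraries numbered above 50, Uqcrc1 with mt-Cytb had a rho of −0.40 and passed (adjusted permutation p = 0.0138), and with plain CPM Atp5b with mt-Atp6 had 0.40 and passed (adjusted permutation p = 0.000135), and over the alternatives these relations ran from −0.40 to 0.26 and from −0.22 to 0.40. Tfam, which packages mitochondrial DNA and starts its transcription, had a rho of 0.36 with mt-Nd1 (adjusted permutation p = 0.0009; r = 0.37, adjusted p = 0.00054; r = 0.36 without 2 libraries), and 0.26, not passing, in libraries numbered above 50, 0.56 in those numbered 50 or lower and 0.65 with plain CPM. Ppargc1a, a regulator of nuclear respiratory genes, had a rho of 0.09 with Ndufs1 (adjusted permutation p = 0.466, and r = 0.06 with adjusted permutation p = 0.593). It ran from −0.22 in libraries numbered 50 or lower to 0.39 in those above 50, where it passed (adjusted permutation p = 0.0138).

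Other genes of the pathway were read from lists. Their counts above a coefficient of 50% stand beside a share of 24.5% over all kept genes. Of 9 subunits, electron carriers and associated proteins (such as Atpif1, Coa3, Smim20 and Higd1a) that the name rule misses, 1 exceeded a coefficient of 50%. Their median spread was 0.59. Cyc1, the cytochrome c1 of complex III, had the narrowest spread (0.40), with a median of 45.8 CPM. Higd1a, a small inner membrane protein linked to complexes III and IV, had the widest (1.69, from 1.37 to 26.8 CPM). The median over the 9 genes of the mean rho with nuclear structural subunits was 0.38, beside a mean pairwise rho of 0.35 among those subunits.

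Of 36 kept assembly factors of all complexes, 1 exceeded 50%, against 24.5% of all kept genes. It was Lyrm7, a chaperone of the complex III iron-sulphur protein, with 0.275 to 8.29 CPM and a spread of 3.64. Cox15, an enzyme of heme A synthesis, was the narrowest (0.24), and Coa5 had a median of 66.6 CPM. Their median mean rho was 0.08 with the nuclear structural subunits and 0.13 with the mitochondrial genes. Of 17 genes of mitochondrial transcription and RNA stability, 1 exceeded 50%, Mterf1b (spread 2.26), beside the same 24.5% over all kept genes. Lrpprc, which stabilises mitochondrial mRNAs, had a median of 56.7 CPM, and Mtpap, the mitochondrial poly(A) polymerase, was the narrowest (0.33). Their median mean rho was −0.20 with the nuclear structural subunits and 0.17 with the mitochondrial genes. Of 11 regulators of nuclear respiratory genes, Ppargc1a alone exceeded 50%, again beside 24.5% over all kept genes. It ran from 0.616 to 52.0 CPM with a median of 2.38. Hcfc1 had a median of 90.4 CPM, and Yy1 had the narrowest spread (0.31). The median mean rho of these regulators was −0.04 with the nuclear structural subunits and −0.05 with the mitochondrial genes.

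Outside the family, the genes whose levels were most like the nuclear structural subunits, by mean rho over 95 libraries, were Nme2 (0.50), a nucleoside diphosphate kinase, Eef2 (0.50), the translation elongation factor, Mrpl28 (0.49), a mitochondrial ribosomal protein, Hint1 (0.49) and Timm17b (0.49), part of the mitochondrial import machinery. Most like the mitochondrial genes were the copies Gm28437 (0.76) and Gm10925 (0.70), then Ktn1 (0.66), Ggps1 (0.65) and Zfp932 (0.62). In the reference Gm28437 equals mt-Co3 over 783 bases and Gm10925 equals mt-Atp6 over 678. The counts of these copies therefore cannot be taken as separate from those members.

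Promoters were searched because the nuclear subunits varied together. RefSeq promoter windows (GRCm38.p6, 250 bases before to 50 after the start) were matched by symbol for 62 of the 77 structural subunits. The NRF1 motif was found on either strand in 17 of 62 (27.4%). This stands against 5.19% of all 27025 genes with such a window and 10.5% of the 11221 kept genes among them. A YY1 motif was found in 6.45%, against 0.755% and 1.62%. The letters CCGGAAGT, a core of the motifs of ETS factors such as GABP, were found in 8.06%, against 4.31% and 8.17%. By complex, the NRF1 motif stood in 6 of 13 ATP synthase genes, 7 of 32 of complex I, 2 of 3 of complex II, 1 of 5 of complex III and 1 of 9 of complex IV. Part of the window of Atp5g3, the structural subunit with the highest mean rho (0.46) among those with a match, is shown for chr2:73911297-73911446 (minus strand) with the match in capitals:
Atp5g3: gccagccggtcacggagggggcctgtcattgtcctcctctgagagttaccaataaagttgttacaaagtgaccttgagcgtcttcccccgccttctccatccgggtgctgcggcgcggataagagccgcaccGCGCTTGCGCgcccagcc
The NRF1 motif also stood in subunits with a low mean rho, such as Sdha (0.04). None of the motifs stood in some with a high mean rho, such as Cox7a2 (0.46). Whether matches go with the mean rho was not tested. A match is a description of letters and does not show that a factor binds.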

How the data were processed

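Poly(A) RNA of islets was sequenced in 95 libraries, per the labels' protocols. The authors deposited estimated counts for 20638 genes, not normalized, a table of variance-stabilised values close to a log2 scale, and a table of gene symbols and positions. The submitters' processing notes name GRCm38 and DESeq2; the aligner, the counting tool and its use of strand are not given in the sources used here. Other values in the deposited gene table, such as start and end, are positions in megabases.

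From the counts, TMM factors and gene-wise dispersions (intercept only, counts rounded) were computed with edgeR 4.0.16 in R 4.3.3, and log2 CPM with a prior count of 2. The filter kept 15839 genes, those whose plain CPM reached 1 in 10 libraries or more. Copies were annotated genes that hold at least 10% of a member's 31-base words (GENCODE M21) and are in the count table, aligned with Biopython 1.88. Rhos, permutation tests and figures used scipy 1.17.1, numpy 2.4.6 and matplotlib 3.10.9. Dispersion and permutation steps were tested on simulated data. DESeq2 1.42.0 gave alternative size factors and dispersions.

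Nothing in the labels says that libraries came from separate animals. The permutation p-values take libraries as exchangeable, refer only to these libraries, and are too small where libraries resemble each other. Depth was 16411809 to 34357253 counts per library, and fractional estimates mean that values near 0 are not whole reads. Members, lists and tests were chosen with earlier results of these data known. Genes are named by rule: all mitochondrial members; per complex the nuclear members with the top median CPM and with the widest or narrowest spread; members above a coefficient of 50% or not kept; isoform sets; copies; genes of the tested pairs; in each pathway list the highest, widest and narrowest (cell type lists are given as sums); and the 5 other genes most like each genome's members. One member that the rule names is not reported here. Other members and libraries singled out, and the rule on empty stretches applied to every gene, were chosen after values were seen. Alternatives were DESeq2 size factors and dispersions, plain CPM, the deposited values, a prior count of 0.5, no filter, totals without acinar and hormone genes, subsets of libraries (numbers up to 50, above 50, not above 90, acinar share up to 25%), copies summed, structural subunits only, members with over 90% shared words left out, and removal of the log2 acinar share by regression. Summing nuclear members with their own copies was chosen after seeing the data.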

Additional observations from a re-analysis of the deposited data

How the results depend on the processing

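The medians of spread for both genomes stayed within 1.5 times of the reported values in every alternative run (0.42 to 0.73 for nuclear and 0.78 to 0.94 for mitochondrial members). Their place beside all kept genes was less steady for the mitochondrial members. With the deposited values their median was 0.81 against 0.56 over all kept genes, and in libraries numbered 50 or lower 0.82 against 0.83. Summed with nuclear copies, the spread of mt-Co2 was 0.60 and the mean rho among mitochondrial genes 0.81 (0.69 as reported). Of these summed genes 0 had a coefficient above 50% in edgeR, against 24.5% of all kept genes in that run. Without genes that have over 90% shared words the mean rho was 0.85. With plain CPM the mean rho was 0.56 among nuclear members and 0.26 between genomes, and in libraries numbered 50 or lower it was −0.18 between genomes. Nuclear members with a coefficient above 50% numbered 5 with no filter, 1 in libraries numbered 50 or lower and 1 when summed with their own copies, and mitochondrial members 1 in libraries numbered 50 or lower. The share over all genes moved too, to 37.4% with no filter and 17.9% in libraries numbered 50 or lower, from 24.5% as reported. With totals without acinar and hormone genes, the median shares were 0.64% (nuclear) and 2.62% (mitochondrial). Without the libraries numbered above 90, 5 of the 11 gene relations passed, and no other alternative moved that count by over 1.5 times.

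The sign of 5 relations changed in 9 of 99 cases: Ndufs1 with mt-Nd1 (−0.050, libraries numbered 50 or lower), Cox4i1 with mt-Co1 (0.21, plain CPM), Uqcrc1 with mt-Cytb (−0.40 above 50, where it passed, and −0.11 without acinar-rich libraries), Atp5b with mt-Atp6 (−0.00673 at 50 or lower, −0.22 above 50, −0.018 with the acinar share removed) and Ppargc1a with Ndufs1 (−0.22 at 50 or lower, −0.067 without those above 90). The cause was not tested. In 7 further cases a relation kept its sign and no longer passed, and in 2 one that had not passed did (Atp5b with mt-Atp6 with plain CPM, Ppargc1a with Ndufs1 above 50). The other 81 cases kept sign and call, and 90 of 104 summary values moved little. No paired analysis was possible because the labels give no groups. Depth limits Cox4i2, Cox6b2 and Cox7a1, whose medians lie near or below 1 CPM.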
